A study of Mus musculus with 4 samples.

Results

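Adipocytes store fat as triglyceride in a lipid droplet and secrete hormones, the adipokines. They are part of the fat that lies within and around the outer sheath of peripheral nerves, the epineurium. The 10 genes described here mark these cells or the work they do, and were taken from a table of 50593 mouse genes as the rows whose gene symbol was Adipoq, Plin1, Fabp4, Lep, Pparg, Lipe, Pnpla2, Cidec, Ucp1 or Retn. Each symbol stood in 1 row. The rule used the symbols and no values, but the list was drawn up with earlier results of these data known.

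The table came from RNA sequencing of whole sciatic nerve from mice of strain 129S1/SvImJ at 6 months of age. HSF V30M mice carry the human TTR V30M transgene, a mutant transthyretin that causes hereditary amyloid neuropathy, on a background lacking endogenous Ttr. HSF WT mice carry no transgene. Both groups are described as heterozygous for a deletion of Hsf1, the heat shock transcription factor, so by that description no mouse with intact Hsf1 is in the comparison. As described, the groups differ in the transgene and in the endogenous Ttr alleles together, and the effects of these cannot be told apart. The promoter of the transgene is not given in the sources used here. The labels list 2 mice per group, and the study's methods do not say whether their number of animals counts each group. The authors' table holds 1 FPKM value (fragments per kilobase of transcript, scaled to depth) per gene and group. No spread between mice can therefore be given, no test was possible here, and every difference below is one between 2 group values.

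The labels and the tissue were checked first. Ttr stood at 6.10 FPKM in HSF V30M and was listed at 0 in HSF WT. Read as RNA of the mouse gene, these values would go against the labels. The reads were aligned to the mouse genome, so any reads of the human transgene counted at Ttr cannot be told apart from mouse reads. The values therefore do not settle the labels, and the group names and directions below are those of the labels. Hsf1 stood at 7.94 FPKM in HSF V30M and 15.0 FPKM in HSF WT, a log2 ratio of -0.84, although both groups are described as carrying the heterozygous deletion. Whether the groups also differ in their Hsf1 alleles was not tested. All 10 listed markers of myelinating Schwann cells, the cells that ensheath axons in nerve, averaged 1 FPKM or more, and none of them differed by over 1.5-fold. Of 8 further Schwann cell markers 2 were called by the fold defined below. Gfap, an intermediate filament gene of non-myelinating Schwann cells, stood at 2.28 FPKM in HSF V30M and 8.77 FPKM in HSF WT. The calcium-binding protein gene S100b stood at 328 FPKM in HSF V30M and 200.98 FPKM in HSF WT. RNA of adipocyte genes was measured in both groups, and 9 of the 10 genes averaged 1 FPKM or more over the groups. The exception was Ucp1, the uncoupling protein of brown and beige adipocytes.

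Of these 9 genes, all had the lower value in HSF V30M, and 3 were lower by over 1.5-fold, namely Lep, Adipoq and Fabp4. A gene was called past this fold where FPKM plus a pseudocount of 1 differed by over 1.5-fold and the 2 groups averaged at least 1 FPKM. Across all 15620 genes of that level, 8.44% were called lower and 8.22% were called higher. The 3 called genes are 33.3% of 9, and no member was called higher. The median log2 ratio of the 9 genes, HSF V30M over HSF WT, was -0.41, while that of all 15620 genes was 0.0030. The other 6 genes had log2 ratios from -0.41 to -0.16. Where a pair of FPKM values is given below without group names, HSF V30M comes first. In a bulk sample, fewer adipocytes and less RNA per adipocyte cannot be told apart.

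**Figure D1:**
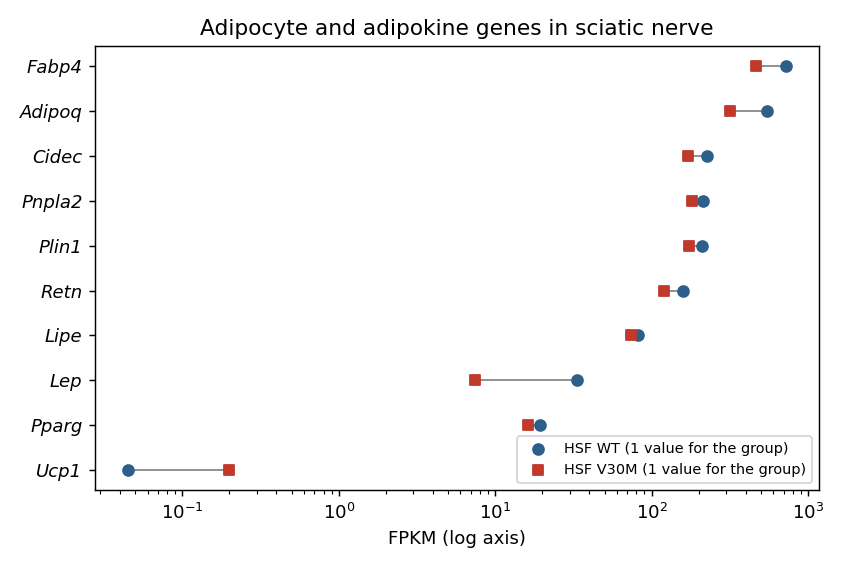
FPKM of the 10 genes on a log axis, with 1 value for HSF WT (blue circles) and 1 for HSF V30M (red squares) and a grey line joining them. The genes span from 0.0451 FPKM (Ucp1) to 722 FPKM (Fabp4) in HSF WT, and the widest gap among genes over 1 FPKM is that of Lep.

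The adipokines among the 10 genes were Lep, Adipoq and Retn. Lep encodes leptin, the hormone that reports fat stores to the brain. It lies on chromosome 6 (ENSMUSG00000059201, GRCm38, chr6:29060220-29073877, plus strand). Its value was 7.47 FPKM in HSF V30M and 33.4 FPKM in HSF WT, a log2 ratio of -2.02. HSF WT was thus 4.47-fold higher, with a 95% counting interval of 3.05 to 6.69. Leptin RNA was the furthest apart of the 9 genes, and among 21759 protein-coding genes ordered by FPKM it ranked 7709 in HSF V30M and 2064 in HSF WT. Between 36 and 589 fragments lay behind the HSF V30M value and between 113 and 2125 behind the HSF WT value. The ranges are wide because Lep has 2 annotated transcripts, of 420 and 3259 bases, and the table does not say which of them was counted. The interval takes the same transcripts in both groups and covers counting error only, not the spread between mice.

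Adipoq encodes adiponectin, a hormone made almost wholly by adipocytes that raises insulin sensitivity. The gene lies on chromosome 16 (ENSMUSG00000022878, chr16:23146536-23158028, plus strand). Its value was 319 FPKM in HSF V30M and 543 FPKM in HSF WT, a log2 ratio of -0.77 and a linear fold of 1.70 (1.61 to 1.80). This gene of high level ranked 116 of the protein-coding genes in HSF V30M and 54 in HSF WT. Retn encodes resistin, which in mice is secreted by adipocytes (ENSMUSG00000012705, chr8:3655770-3660110, plus strand). It stood at 119 FPKM in HSF V30M and 159 FPKM in HSF WT, a log2 ratio of -0.41 that was not past the fold, although its counting interval of 1.25 to 1.43 did not include equal values.

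The 3 adipokine genes thus spanned log2 ratios from -2.02 to -0.41 within 1 pair of values, while Plin1, a droplet protein found on fat cells, was at -0.28. With each value taken relative to Plin1, which was chosen as the reference after the values had been seen, and with the same pseudocount, Lep was at -1.76, Adipoq was at -0.49 and Retn was at -0.14. The only gene past the fold on that scale was Lep.

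The 250 bases before the start sites of Lep, Adipoq and Plin1 are shown to set the 2 adipokine genes of greatest difference beside that reference. They are RefSeq sequences of build GRCm38.p6, written 5′ to 3′ on the strand of the gene, and capitals mark matches to TTGCNNAA, a core of the kind bound by C/EBP factors, which drive adipocyte differentiation.
Lep, chr6:29059971-29060220, plus strand: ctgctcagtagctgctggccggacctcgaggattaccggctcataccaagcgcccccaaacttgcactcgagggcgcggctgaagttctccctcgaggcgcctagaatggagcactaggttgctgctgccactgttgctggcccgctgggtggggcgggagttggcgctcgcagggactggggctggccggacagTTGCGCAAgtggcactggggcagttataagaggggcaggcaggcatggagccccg
Adipoq, chr16:23146286-23146535, plus strand: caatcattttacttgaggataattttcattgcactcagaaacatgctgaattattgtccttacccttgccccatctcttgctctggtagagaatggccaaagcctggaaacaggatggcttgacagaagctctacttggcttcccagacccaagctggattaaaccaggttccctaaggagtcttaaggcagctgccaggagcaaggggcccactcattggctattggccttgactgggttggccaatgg
Plin1, chr7:79732777-79733026, minus strand: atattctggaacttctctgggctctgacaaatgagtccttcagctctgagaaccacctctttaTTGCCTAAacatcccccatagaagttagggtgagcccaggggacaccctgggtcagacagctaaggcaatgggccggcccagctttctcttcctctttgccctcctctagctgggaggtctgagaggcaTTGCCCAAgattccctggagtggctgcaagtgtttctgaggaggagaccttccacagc

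Lep held TTGCGCAA, starting 55 bases before the start site. Plin1 held TTGCCTAA at 187 bases and TTGCCCAA at 58 bases before it, and Adipoq held no match in this window. Both strands were searched, and TATAAA (the TATA box) and AGGTCA (the core bound by nuclear receptors such as PPARγ) were searched too, with no match in these 3 windows. A RefSeq window existed for 9 of the 10 genes, in 13 windows, and none was given for Fabp4. TTGCNNAA was in 4 of the 13 windows, which belong to Lep, Plin1, Cidec and Pparg, while 9.56% of all 32851 windows of this length held it. AGGTCA was in 3 of the 13 windows, those of Pparg and Ucp1 (14.02% of all windows), and TATAAA in 1 window, of Pparg (12.4% of all windows). These are matches of letters and not sites shown to be bound.

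Fabp4 encodes the fatty acid carrier of the adipocyte cytoplasm, and was the gene of highest level in both groups (ENSMUSG00000062515, chr3:10204088-10208576, minus strand). Its value was 462 FPKM in HSF V30M and 722 FPKM in HSF WT, a log2 ratio of -0.64 and a linear fold of 1.56 (1.51 to 1.61). At least 7008 and 7755 fragments lay behind these values, the deepest of the 10 genes. Endothelial cells and macrophages can also express Fabp4, so it is the least specific to fat of the called genes. Of 9 endothelial markers 2 were called higher and none lower in HSF V30M, with summed FPKM of 326 and 264. Of 9 macrophage markers 2 were called lower and none higher, with summed FPKM of 428 and 625, and the part of these cells in the Fabp4 value was not tested.

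Added up, the 10 genes came to 1523 FPKM in HSF V30M and 2205 FPKM in HSF WT, a log2 ratio of -0.53. Adipoq and Fabp4 together made 70.9% of this difference.

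**Figure D2:**
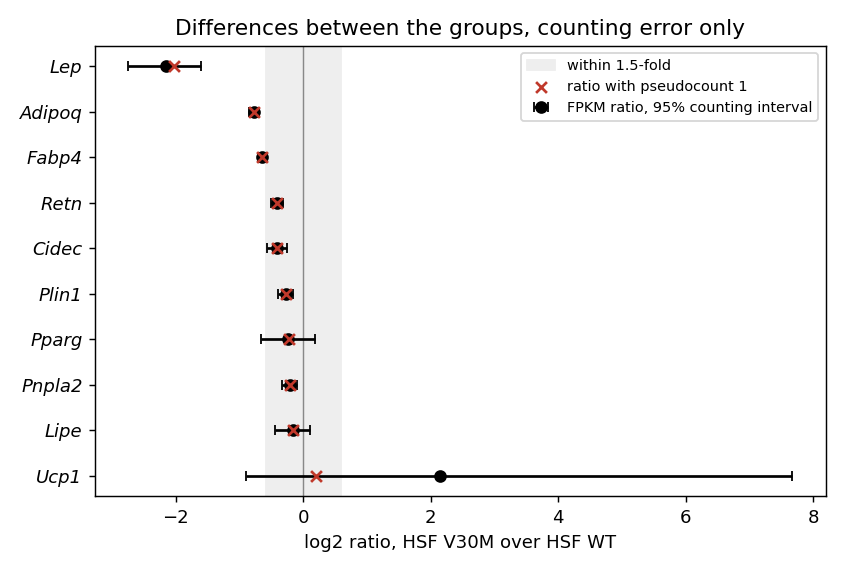
Log2 ratio of each gene, with HSF V30M over HSF WT, as the FPKM ratio with its 95% counting interval (black) and with a pseudocount of 1 (red crosses), and with differences within 1.5-fold shaded. Lep lies furthest left, the intervals of Lipe, Pparg and Ucp1 cross 0, and that of Ucp1 rests on so few fragments that it spans several log2 units.

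Among the proteins of the lipid droplet, Plin1 and Cidec were not past the fold. Plin1 encodes perilipin 1, which coats the droplet and holds back lipases (ENSMUSG00000030546, chr7:79720218-79732903, minus strand). It stood at 173 FPKM in HSF V30M and 210 FPKM in HSF WT, a log2 ratio of -0.28 with a linear fold of 1.21 (1.11 to 1.32). Cidec encodes a protein that fuses small droplets into the single large droplet of white adipocytes (ENSMUSG00000030278, chr6:113424634-113435760, minus strand). Its value was 170 FPKM in HSF V30M and 225 FPKM in HSF WT, a log2 ratio of -0.41 with a linear fold of 1.33 (1.19 to 1.48). Of 10 further droplet genes averaging 1 FPKM or more, none was called in either direction and their median log2 ratio was -0.04. The highest of them was Cav1, a caveola protein that endothelium also makes, at 569 and 503 FPKM.

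The 2 lipases had the log2 ratios nearest to 0 among the 9 genes averaging 1 FPKM or more. Pnpla2 encodes ATGL, which takes the first fatty acid off a triglyceride (ENSMUSG00000025509, chr7:141455198-141460743, plus strand). It stood at 182 FPKM in HSF V30M and 211 FPKM in HSF WT, a log2 ratio of -0.21 with a linear fold of 1.16 (1.07 to 1.26). Lipe encodes hormone-sensitive lipase, which acts on the diglyceride that ATGL leaves (ENSMUSG00000003123, chr7:25379527-25398710, minus strand). Its value was 73.6 FPKM in HSF V30M and 82.3 FPKM in HSF WT, a log2 ratio of -0.16, and its counting interval of 0.925 to 1.35 included equal values. Lipe shares 918 exon bases with the gene 4732471J01Rik on the other strand, which stood at 4.49 and 3.48 FPKM. The sources used here do not say whether strand was used in counting, so fragments from the shared bases cannot be told apart.

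Of 11 further lipolysis genes 2 were called higher in HSF V30M and none lower. Mgll, the lipase that takes off the last fatty acid, stood at 130 and 72.6 FPKM, and Prkar2b, a regulatory subunit of protein kinase A, at 12.1 and 7.66 FPKM, in HSF V30M and HSF WT. Mgll was also the gene of highest level in this list.

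Pparg encodes PPARγ, the nuclear receptor that directs adipocyte differentiation and binds at many fat genes (ENSMUSG00000000440, chr6:115360951-115490399, plus strand). It stood at 16.3 FPKM in HSF V30M and 19.2 FPKM in HSF WT, a log2 ratio of -0.23. The counting interval of the linear fold, 0.878 to 1.58, included both equal values and a 1.5-fold difference. Of 16 further adipocyte transcription factors 2 were called higher in HSF V30M and none lower, with a median log2 ratio of 0.18. These were Cebpd, an early C/EBP factor of differentiation, at 12.3 and 6.82 FPKM, and Klf15, a factor also induced by glucocorticoids, at 33.3 and 21.4 FPKM. The highest of the list was Srebf1, which drives lipid synthesis genes, at 140 and 151 FPKM.

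Ucp1 was near the limit of these libraries (ENSMUSG00000031710, chr8:83290352-83298452, plus strand). Its 0.20 FPKM in HSF V30M came from about 6 to 7 fragments and its 0.0451 FPKM in HSF WT from about 1 fragment. The ratio of HSF V30M to HSF WT had a counting interval of 0.538 to 204, so no difference was detectable. Of 15 further genes of brown and beige adipocytes 9 averaged 1 FPKM or more, and 1 of them was called, Dio2, the enzyme that activates thyroid hormone, at 1.26 and 3.34 FPKM. The highest of this list was Pdk4, a kinase that also responds to fasting in muscle, at 24.0 and 27.8 FPKM.

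**Figure D3:**
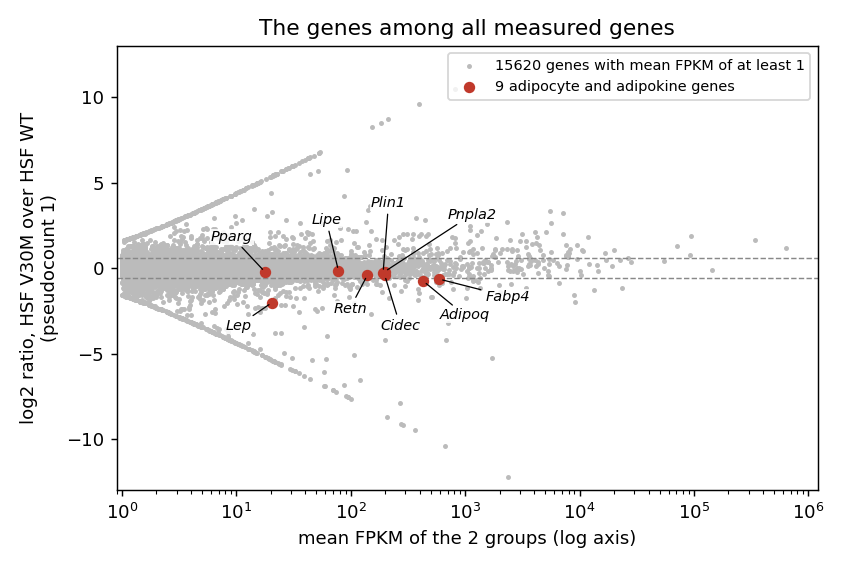
Log2 ratio (pseudocount 1) against mean FPKM on a log axis for the 15620 genes averaging 1 FPKM or more (grey) and the 9 genes that reached it (red), with dashed lines at 1.5-fold. Lep lies clear below the lower line, Adipoq and Fabp4 lie just under it at the high end, and the other 6 lie between the lines below 0.

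The genes over 1 FPKM were mostly of high level, where fewer genes of the whole table were called. At an average of 10 FPKM or more, a minimum chosen after the values had been seen, 5.59% of 7239 genes were called lower. All 9 members above 1 FPKM met this minimum, and the same 3 were called.

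Uptake and synthesis of fatty acids fill the droplet. Of 24 genes of fatty acid uptake and triglyceride synthesis 5 were called lower in HSF V30M and none higher, with a median log2 ratio of -0.16. Cd36, a fatty acid transporter that macrophages and endothelium also carry, stood at 61.0 and 130 FPKM in HSF V30M and HSF WT. Acly, which makes acetyl-CoA for lipid synthesis, stood at 59.0 and 117 FPKM, and Thrsp, a lipogenic protein, at 70.04 and 133 FPKM. Fasn, the fatty acid synthase, stood at 230 and 369 FPKM, and Elovl6, a fatty acid elongase, at 15.4 and 24.9 FPKM. Myelinating cells also make fatty acids, so these genes are not specific to fat, and the gene of highest level, the desaturase Scd1, stood at 900 and 762 FPKM.

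A list of other adipokines had 13 genes averaging 1 FPKM or more. Of these 3 were called lower in HSF V30M and none higher, with a median of -0.15. Nnat was on this list, although neuronatin is a membrane protein, found in fat and in neurons, and not a secreted hormone. Its values were 17.3 and 61.2 FPKM, a log2 ratio of -1.77. Rbp4, the retinol carrier, stood at 33.9 and 71.6 FPKM, and Agt, angiotensinogen, at 1.58 and 3.81 FPKM. Cfd, adipsin, the adipokine of highest level, stood at 1188 and 1467 FPKM and was not past the fold. Of 8 receptors and signalling genes for adipokines and insulin 1 was called, Cdh13, which binds adiponectin, at 12.6 FPKM in HSF V30M and 8.02 FPKM in HSF WT. The highest of these was the adiponectin receptor Adipor1, at 41.6 and 36.3 FPKM.

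The relatives of 3 genes were listed as well. Leaving out Retn itself, Retnla was the highest of the resistin family, at 97.6 and 126 FPKM, Retnlg, a neutrophil gene, was called higher at 3.14 and 1.53 FPKM, and Retnlb was listed at 0 in both groups. Leaving out Fabp4, Pmp2, a myelin protein, was the highest of the fatty acid binding protein family at 56.3 and 47.0 FPKM, and Fabp7 was called lower at 0.42 and 1.84 FPKM. Ucp2, the uncoupling protein common in immune cells, stood at 186 and 217 FPKM, and neither Ucp2 nor Ucp3 was called.

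Over all 11 pathway lists, 112 genes other than the 10 averaged 1 FPKM or more. Of these 12 were called lower (10.7%, against 8.44% of all genes) and 7 higher (6.25%, against 8.22%), and their median log2 ratio was -0.04. Shares of this size lie near those of the whole table.

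**Figure D4:**
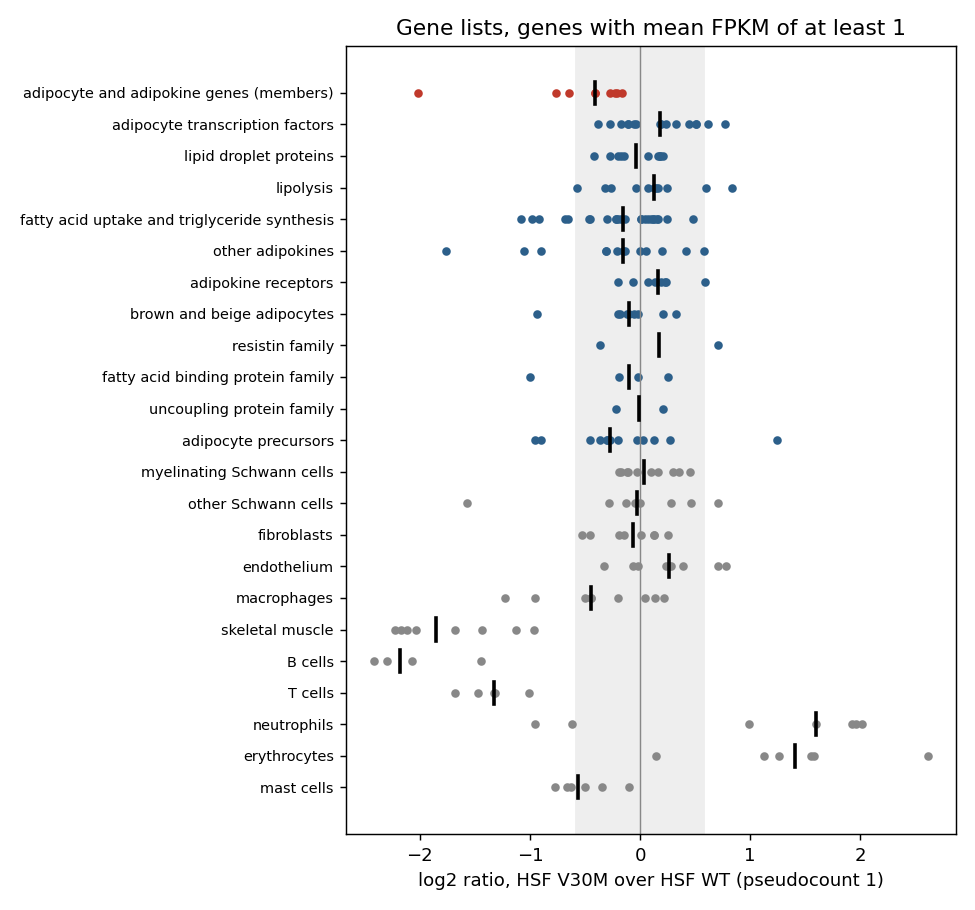
Log2 ratio (pseudocount 1) of each gene averaging 1 FPKM or more, by list, for the adipocyte and adipokine genes (red), the pathway lists (blue) and markers of other cell types (grey), with black bars at the medians and differences within 1.5-fold shaded. The median of the red genes is -0.41, and the muscle, B cell and T cell markers lie further left.

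Markers of other cells differed between the groups as well. Each summed FPKM below covers every matched marker of its list, also those averaging under 1 FPKM. All 8 skeletal muscle markers averaging 1 FPKM or more, of 10 listed, were called lower in HSF V30M, with summed FPKM of 48.4 and 180. So were all 4 such B cell markers of 8 (4.07 and 30.8) and all 5 T cell markers of 8 (4.82 and 19.3). Of 6 mast cell markers 3 were called lower and none higher (131 and 204). Erythrocyte markers were called higher in 5 of 6 (292 and 101), and neutrophil markers in 5 of 7 with 2 lower (109 and 39.2). None of these listed markers was at 0 in both groups, none of 8 fibroblast markers was called, and the part of these cells in the adipocyte values was not tested.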

How the data were processed

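RNA sequencing of sciatic nerve was used. The authors made the FPKM values with Cuffdiff and deposited 1 FPKM per gene and group, written with decimal commas; the submitters' notes name STAR, Cufflinks and Cuffdiff without versions, and GRCm38, the C57BL/6J genome, while the mice are of a 129 strain. Settings and annotation are not given in the sources used here. The deposited table also holds the authors' log2 fold change, test statistic, p-value, q-value and significance mark, which were not used. Values were read by column number, and 23 genes without an estimate were left out.

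Ratios were log2((HSF V30M + 1) / (HSF WT + 1)), which understates the change of low genes. Linear folds are of FPKM. The members and the lists were chosen with earlier results of these data known. All 10 members were named and, of each pathway list, the genes past the fold (at most 6) and the gene of highest mean FPKM. 1 gene is not reported here. Of 228 listed symbols, Vaspin (an alias of Serpina12) and Ahsp were not matched. Positions, transcripts and ranks are from GENCODE release M21 of GRCm38, and upstream sequences from RefSeq GRCm38.p6.

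What 1 fragment is worth was recovered from genes with a single transcript and no other gene in their locus, after subtracting 201 bases from the transcript. The 2 libraries of HSF WT gave steps of 0.0480 and 0.0647 FPKM times kilobase, where 95.8% of 1419 low values lay within 2% of whole fragments, and in HSF V30M, given to 2 decimals only, steps of 0.0388 and 0.0458 matched the most values, with 92.0% of 679 low values equal to 1 fragment within that rounding. The HSF V30M steps were picked as the pair that fitted the most values, so the 92.0% is not a separate check of them. By these steps, the libraries of a group differed in depth by 1.35-fold in HSF WT and 1.18-fold in HSF V30M. Fragments range from the shortest transcript and larger worth to the longest transcript and smaller worth; 95% intervals use the lower numbers, are exact binomial and cover counting error only. Scripts were tested on simulated data. Of 50-base words in the transcripts, 8 members shared none with another gene, Plin1 shared 0.194% and Lipe 10.8%.

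As alternatives, a fold over 2, a minimum mean of 5 or none, median-of-ratios scaling, a pseudocount of 0.1 and leaving out each member were tried. Intervals were computed with scipy 1.17.1, tables with pandas 2.3.3 and numpy 2.4.6 under Python 3.11.15, and plots with matplotlib 3.10.9.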

Additional observations from a re-analysis of the deposited data

How the results depend on the processing

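No paired analysis was possible because each group has a single value, and for the same reason no mouse could be left out. With a pseudocount of 0.1, median-of-ratios scaling, a minimum mean FPKM of 5 or no minimum, 3 genes were called lower. The minimum of 5 could not change this count, since all 9 genes over 1 FPKM averaged more than 10 FPKM. The scaling factors, 1.001 for HSF V30M and 0.999 for HSF WT, left little room for a change. With a fold over 2, 1 of the 10 genes was called and 5 of the pathway genes, against 3 and 19 at 1.5-fold. The fold does not enter the median of the genes, which lay between -0.41 and -0.34 under the other settings and with each gene left out in turn. With values taken relative to Plin1, an alternative chosen after seeing the data, 1 gene was called, the median was -0.13 and 5 genes lay below 0. Of 246 comparisons of single genes and lists with their values under an alternative, 32 moved. The 246 include list medians under the fold over 2, which could not move because the fold does not enter them. A change of direction was looked for only in genes and list medians past 1.5-fold at the main setting, and 0 of these changed. Counts of genes, which are part of the 246, have no direction. Among genes not called, Lipe, Pnpla2 and Pparg went from below 0 to 0.11, 0.06 and 0.04 relative to Plin1. Depth limits Ucp1, whose HSF WT value is about 1 fragment.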

Other observations

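Adipocyte precursors, the stromal cells from which fat cells form, were listed too. Of 13 precursor genes averaging 1 FPKM or more, 1 was called higher and 2 were called lower in HSF V30M, with a median log2 ratio of -0.27. Dlk1, an imprinted gene of preadipocytes that inhibits their differentiation, stood at 14.3 FPKM in HSF V30M and 5.43 FPKM in HSF WT, a log2 ratio of 1.25. Pi16, found on fibroblasts of connective tissue sheaths, stood at 42.4 and 83.0 FPKM, and Clec11a at 1.53 and 3.71 FPKM. The gene of highest level was Ly6a, at 73.3 and 90.5 FPKM. These lists share Pdgfra with the fibroblast markers, and no spread between mice is known for them.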
